A study of Mus musculus with 33 samples.

Results

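The interferon regulatory factors, transcription factors that switch on interferons and the genes that answer to them, were examined in the bone marrow (BM) of mice treated for 2 days with venetoclax or ruxolitinib. Members were taken by gene symbol from the probe names: Irf1, Irf2, Irf3, Irf5, Irf7 and Irf8, 6 of the 750 endogenous probes counted and 6 of the 655 that passed the detection filter. All animals were female C57BL/6 mice aged 6-8 weeks. BM RNA was taken on days 1, 3 and 7 post-treatment from 3 mice per day given venetoclax, an inhibitor of the survival protein BCL2, and from 3 mice per day given ruxolitinib, an inhibitor of the kinases JAK1 and JAK2 that relay interferon signals. For each drug and day, 2 mice received the vehicle alone, and 3 further mice were untreated, giving 33 mice in 13 groups by the labels. These vehicle groups of 2 are smaller than the group size given in the methods. The doses were 100 for venetoclax and 180 for ruxolitinib, in mg/ml on the sample labels and in mg/kg in the methods. Both drugs and their vehicles were given by oral gavage. The venetoclax vehicle was made of Phosal 50 PG, PEG 400 and ethanol, and the ruxolitinib vehicle of DMSO, PEG 300 and water.

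Interferon regulatory factors share a DNA-binding domain that recognises GAAA repeats, the core of the interferon-stimulated response element (ISRE). IRF3 and IRF7 are activated by kinases downstream of viral nucleic acid sensors and drive type I interferon genes, and IRF5 acts downstream of MyD88-coupled Toll-like receptors in inflammatory cytokine induction. Type I interferon then signals through JAK1, TYK2 and the STAT proteins, and Irf7 and Irf1 are themselves among the genes this signal induces. IRF1 activates antigen-presentation genes after interferon gamma, IRF2 binds the same elements and commonly opposes IRF1, and IRF8 guides monocyte, dendritic cell and B cell development in marrow. In the study both drugs served as conditioning before allogeneic stem cell transplantation, and the expression data address which immune pathways each drug altered in marrow.

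RNA was counted on the NanoString nCounter, which tags each transcript directly with a fluorescent barcode, and every mouse filled 1 lane. The summed counts of the endogenous probes ranged from 18056 to 466096 per lane with a median of 158944, and background, set at the mean plus 2 SD of a lane's negative control probes, ranged from 1.83 to 7.85 counts. Values below are normalised counts, raw counts divided by the lane's housekeeping factor. Each day was read in its own run of 11 lanes with 1 untreated mouse per run, so day and run cannot be told apart, while drug and vehicle of a given day shared their run. The header of the day 3 run reads day 2. The tissue label was checked against neutrophil markers, which are typical of marrow. All 8 measured neutrophil markers were above background in 33 of 33 lanes, and their summed level ranged from 57164 to 122660 normalised counts per mouse.

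All 6 transcripts were detected. Irf1, Irf2, Irf3 and Irf8 were above background in 33 of 33 lanes, Irf5 in 32 and Irf7 in 30. Irf7 was the least counted, with 3 to 143 raw counts per lane, so its values carry the largest counting error. The lanes in which Irf7 was not above background were those of 1 venetoclax mouse on day 1, 1 ruxolitinib mouse on day 3 and the untreated mouse of the day 1 run, with 3, 4 and 4 raw counts. The lane of that untreated mouse also held the only Irf5 value not above background, at 7 raw counts. Probes differ in efficiency, so levels were compared between groups for 1 gene at a time and never between genes.

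The promoters of 4 members are shown because some members of this family, Irf1 and Irf7 among them, are themselves induced by interferon. RefSeq windows of assembly GRCm38.p6, running from 250 bases before to 50 bases after each start site, were found for 6 of 6 members. Each window was searched on both strands for the ISRE core (GAAA, any 2 bases, GAAA) and for TTCNNNGAA, the gamma-activated site (GAS) of interferon gamma-responsive promoters. The ISRE core was present in 3.44% of all 32851 RefSeq promoter windows, the GAS in 8.3% and either in 11.3%. Capitals mark the matches. The Irf1 window, chr11:53769764-53770063 on the plus strand, holds 1 GAS beginning at -90 from the start site. The Irf2 window, chr8:46739495-46739794 on the plus strand, holds an ISRE core beginning at -241 and a GAS beginning at -224, which do not overlap. The Irf8 window, chr8:120736108-120736407 on the plus strand, holds 2 GAS, beginning at -171 and -153. The Irf7 window, chr7:141266375-141266674 on the minus strand, is shown because Irf7 varied most, and neither set of letters occurs in it. A match describes the sequence and was not tested for binding. The windows of Irf3 and Irf5 and the second listed windows of Irf1 and Irf8 held neither set of letters.
Irf1: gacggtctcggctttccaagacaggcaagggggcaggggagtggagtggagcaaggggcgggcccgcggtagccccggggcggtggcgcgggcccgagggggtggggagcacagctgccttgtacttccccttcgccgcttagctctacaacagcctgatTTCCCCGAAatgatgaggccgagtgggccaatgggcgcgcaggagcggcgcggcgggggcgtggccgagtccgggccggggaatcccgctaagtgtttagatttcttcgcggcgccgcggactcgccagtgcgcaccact
Irf2: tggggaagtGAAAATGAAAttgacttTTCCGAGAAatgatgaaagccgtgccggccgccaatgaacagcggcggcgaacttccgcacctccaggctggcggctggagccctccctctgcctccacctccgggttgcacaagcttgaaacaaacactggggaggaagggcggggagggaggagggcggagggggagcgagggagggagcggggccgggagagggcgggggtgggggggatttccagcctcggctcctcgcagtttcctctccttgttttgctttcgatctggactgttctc
Irf8: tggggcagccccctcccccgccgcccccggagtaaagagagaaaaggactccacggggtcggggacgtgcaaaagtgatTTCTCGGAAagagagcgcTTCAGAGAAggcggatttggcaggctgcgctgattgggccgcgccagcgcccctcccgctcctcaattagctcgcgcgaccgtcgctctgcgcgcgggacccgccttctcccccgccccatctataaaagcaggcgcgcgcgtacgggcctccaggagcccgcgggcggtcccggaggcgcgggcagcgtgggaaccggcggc
Irf7: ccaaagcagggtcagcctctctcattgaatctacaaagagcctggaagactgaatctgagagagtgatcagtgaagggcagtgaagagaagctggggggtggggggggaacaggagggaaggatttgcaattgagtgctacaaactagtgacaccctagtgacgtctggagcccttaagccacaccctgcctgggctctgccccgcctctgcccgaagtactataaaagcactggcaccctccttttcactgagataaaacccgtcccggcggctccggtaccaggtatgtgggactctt

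Levels varied most for Irf7 across the 13 groups. Its highest group mean was 5.60-fold its lowest, against 2.302-fold for Irf8, 1.85-fold for Irf5, 1.85-fold for Irf2, 1.68-fold for Irf3 and 1.63-fold for Irf1. The lowest and highest Irf7 means were those of the ruxolitinib mice of days 1 and 7, at 8.06 and 45.2, which were read in different runs. The day 7 mean included a mouse at 65.2 from 21 raw counts. These ranges therefore mix treatment with day and run. Spread within groups, as a pooled coefficient of variation, was 33.1% for Irf7, 27.7% for Irf5, 25.3% for Irf2, 18.05% for Irf8, 15.8% for Irf1 and 13.2% for Irf3. The untreated mice count as 1 group here although each came from a different run. Their SD was 55.1 for Irf5, against 1.90 to 17.2 in the other groups, and 53.6 for Irf8, against 1.25 to 43.1. The Irf5 and Irf8 percentages therefore include differences between runs. The untreated group also entered the fit. When the 13 groups were ordered by mean, neighbours overlapped in their mice at all 12 steps for Irf2 and Irf5 and at all but 1 step for Irf1, Irf3 and Irf7. For Irf8 the exceptions were 2 of 12 steps.

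**Figure D1:**
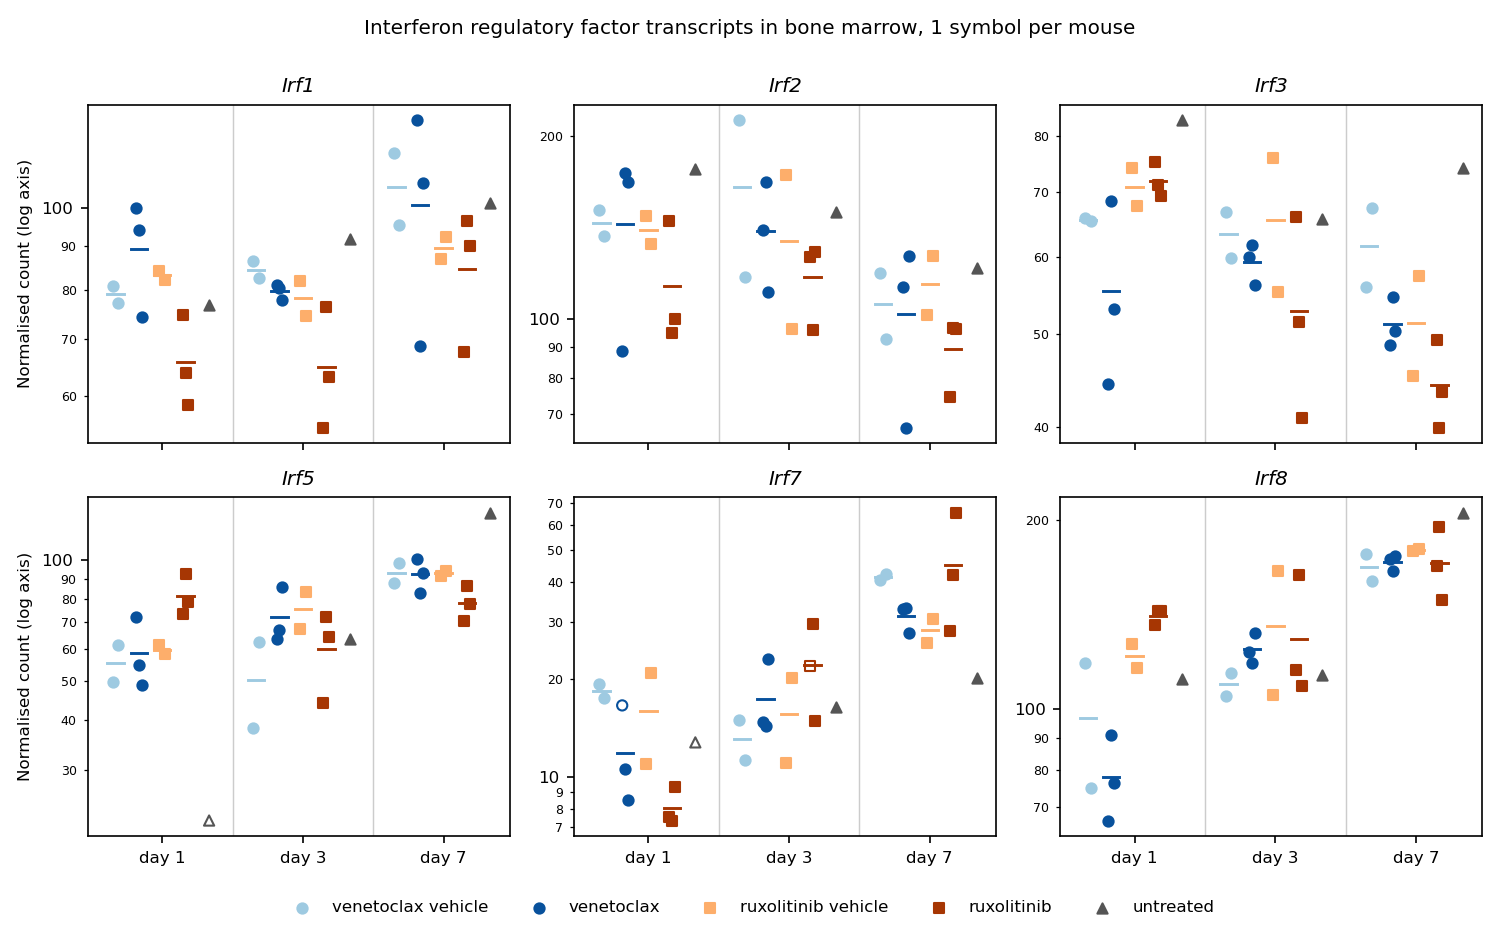
Normalised counts (log axis) of the 6 interferon regulatory factors in each of the 33 mice, by day and treatment; 1 symbol is 1 mouse, horizontal bars are means of the 2 or 3 mice of a group on that day, and open symbols are values not above background. Irf7 spans 7.35 to 65.2 normalised counts, with the 3 ruxolitinib mice of day 1 between 7.35 and 9.30, whereas Irf3 spans 39.9 to 83.2.

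In the fit as reported, no member passed an adjusted p of 0.05 in any of the 15 comparisons of the design. This was the edgeR quasi-likelihood test, which covers 90 member values. Among these values 3 had an unadjusted p under 0.05, all of them for Irf7, or 3.33% against 7.69% over all genes tested. DESeq2 and limma called 0 members in the same comparisons. For venetoclax against vehicle the members' 0 of 6 stands against 0.153% of all 655 genes called on day 1, 0% on day 3 and 0.153% on day 7. For ruxolitinib it stands against 2.75% on day 1, 0.153% on day 3 and 0.153% on day 7. For the difference between the 2 drugs' changes it stands against 1.68%, 0.153% and 0.305% on days 1, 3 and 7. For the mean of 3 days it stands against 2.9% for venetoclax and 1.22% for ruxolitinib, and for the change from day 1 to day 7 against 0% for venetoclax and 1.53% for ruxolitinib. For the 6 vehicle groups against untreated mice, and for the ruxolitinib vehicle against the venetoclax vehicle, 0% of genes were called. In total BM RNA, fewer cells of a type and less RNA per cell cannot be told apart.

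The precision differed between members. For Irf1, Irf2, Irf3 and Irf8 the 95% interval of the log2 fold change lay inside 2-fold in either direction in 6 of 6 comparisons of a drug with its vehicle on a day. This held in 4 of 6 for Irf5 and in 0 of 6 for Irf7. The intervals for Irf1 lay between -0.77 and 0.64, those for Irf3 between -0.84 and 0.44, those for Irf8 between -0.77 and 0.69, and those for Irf2 between -0.95 and 0.68. A change of Irf7 by 2-fold was therefore not excluded in any of these comparisons.

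**Figure D2:**
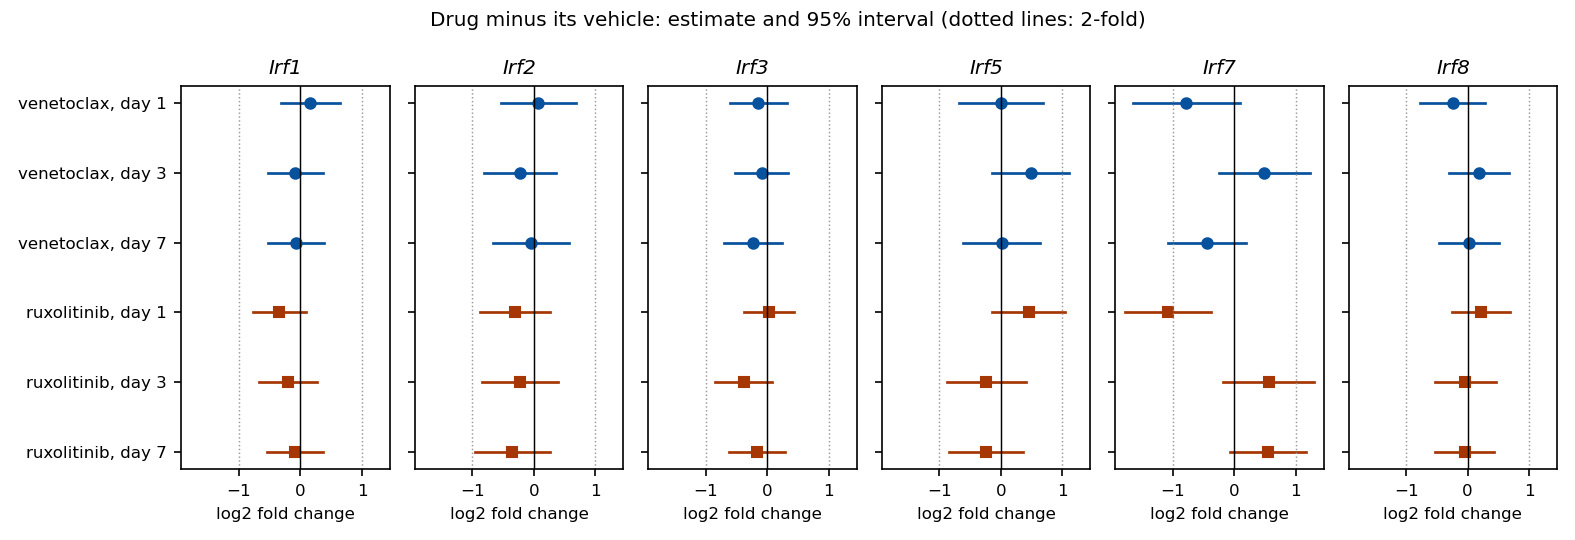
Log2 fold change of each member, drug minus its own vehicle, on each day, with 95% intervals from the edgeR fit (3 drug-treated against 2 vehicle-treated mice); dotted lines mark 2-fold and the solid line no difference. The Irf7 interval for ruxolitinib on day 1, -1.78 to -0.38, is the only one that does not reach 0.

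Irf7, the interferon-inducible factor that amplifies type I interferon production, had its lowest group mean in the ruxolitinib mice of day 1. These 3 mice had 7.53, 7.35 and 9.30 normalised counts, and the 2 vehicle mice had 10.99 and 20.9. All 3 treated mice lay below both vehicle mice, although the lower vehicle mouse was nearer to the treated mice than to the other vehicle mouse. The log2 fold change was -1.08 (SE 0.34, 95% interval -1.78 to -0.38), with an edgeR adjusted p of 0.0918 that misses the threshold. Of all 655 genes tested 17 had a lower log2 fold change. The estimate rested on the second vehicle mouse: it was -0.44 (adjusted p = 0.927) without that mouse and -1.36 (adjusted p = 0.0556) without the first. Against the 4 mice of both vehicles, whose Irf7 counts ran from 10.99 to 20.9, the difference was -1.13 with an adjusted p of 0.0219.

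On day 1 the venetoclax mice had 16.6, 10.6 and 8.48 normalised counts of Irf7, and their vehicle mice 19.4 and 17.5. The treated mice were again below both vehicle mice, though the highest of them, whose lane was the shallowest with 3 raw counts of Irf7, came close. The log2 fold change was -0.78 (SE 0.42, adjusted p = 0.543). The difference between the 2 drugs' changes on day 1 was 0.30 (SE 0.55), with a 95% interval from -0.82 to 1.42. On this day Irf7 was 1 of 6 members whose venetoclax and vehicle mice did not overlap, against 27.5% of all genes tested. For ruxolitinib the mice of 4 of 6 members did not overlap, namely Irf1, Irf5, Irf7 and Irf8, against 44% of all genes.

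By day 3 the Irf7 mice of both drugs overlapped with their vehicles. Ruxolitinib mice had 22.01, 29.7 and 14.9 normalised counts against 11.02 and 20.3 in vehicle mice, a log2 difference of 0.56 (SE 0.36, adjusted p = 0.998) that was 0.016 without the highest treated mouse and 1.12 without the higher vehicle mouse. Venetoclax mice had 14.8, 14.4 and 23.04 against 14.99 and 11.3, a log2 difference of 0.49 (SE 0.36, adjusted p = 0.676) that ran from 0.21 to 0.65 when 1 mouse was left out.

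On day 7 the ruxolitinib mice had 28.3, 42 and 65.2 normalised counts of Irf7 and their vehicle mice 25.9 and 30.7. The highest of these, 65.2, was the highest Irf7 value of all 33 mice, and the lowest treated mouse lay between both vehicle mice. The log2 difference was 0.55 (SE 0.30, adjusted p = 0.999), and 0.37 to 0.83 when 1 mouse was left out. The venetoclax mice of day 7 had 33.01, 33.2 and 27.8 against 40.6 and 42.1 in their vehicle mice, all below both, with a log2 difference of -0.44 (SE 0.31, adjusted p = 0.999). The 2 drugs' changes differed by -0.99 on day 7 (SE 0.43, unadjusted p = 0.0278, adjusted p = 0.998), with the venetoclax change the lower.

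The ruxolitinib effect on Irf7 differed between day 1 and day 7 by 1.63 on the log2 scale (SE 0.46, unadjusted p = 0.00109), with an edgeR adjusted p of 0.0548. This was the lowest adjusted p of any member in the 15 comparisons. It was 0.99 (adjusted p = 0.849) without the second ruxolitinib vehicle mouse of day 1, 1.91 (adjusted p = 0.0256) without the first, and 1.90 (adjusted p = 0.0187) without the first ruxolitinib mouse of day 7. The same difference for venetoclax was 0.34 (SE 0.53, adjusted p = 0.982). Over the mean of 3 days the ruxolitinib and vehicle mice differed in Irf7 by 0.01 (SE 0.20), with estimates below 0 on day 1 and above 0 on day 7.

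Interferon-stimulated genes, the antiviral and signalling genes that interferon induces through the JAK kinases, gave a reference for Irf7. Of 25 such genes tested, 13 fell with ruxolitinib on day 1 and 0 rose, against 1.98% of all genes called lower. The median log2 fold change of the list was -1.08, that of all 655 genes 0.13. Ifit3, an antiviral effector, fell by 2.81 (SE 0.39, adjusted p = 2.05e-05), and Oas2, which senses double-stranded RNA, fell by 2.10 (SE 0.31, adjusted p = 3.24e-05). Isg15, a ubiquitin-like modifier, fell by 2.47 (SE 0.39, adjusted p = 5.49e-05) and Xaf1, an interferon-inducible pro-apoptotic gene, fell by 1.84 (SE 0.29, adjusted p = 5.49e-05). The Irf7 value of -1.08 lay inside their range of -2.81 to -0.20, with 13 of the 25 below it and 12 above. The values of the other 5 members, from -0.34 for Irf1 to 0.45 for Irf5, lay at its upper end or above it. The list was chosen with earlier results of these mice known, so its direction is a description. The 4 dendritic cell markers measured, a cell type rich in Irf7, summed to 28.3 to 34.5 normalised counts in the ruxolitinib mice of day 1 and 29.4 to 31.1 in their vehicle mice, and the 9 monocyte and macrophage markers to 476 to 585 and 520 to 612. In these groups at most 1 dendritic cell marker was above background in no lane, and both marker sets overlapped between the groups. The other 5 marker sets did not overlap. The 8 neutrophil markers summed to 79414 to 93125 in the ruxolitinib mice and 97038 to 103820 in their vehicle mice, a sum dominated by S100a8. Most single neutrophil markers went the other way, with 6 of 8 above 0 and a median of 0.60 against 0.13 for all genes. The 4 progenitor markers summed to 52.6 to 58.0 in the ruxolitinib mice and 29.3 to 46.6 in their vehicle mice. The sums in ruxolitinib and vehicle mice were 660 to 742 and 604 to 612 for the 8 B cell markers, 79.1 to 87.0 and 75.1 to 77.0 for the 8 T cell markers, and 57.1 to 59.1 and 62.3 to 73.6 for the 8 NK cell markers. Of these lists 0 markers were called in this comparison, and the part of these cells in the Irf7 value was not tested.

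**Figure D3:**
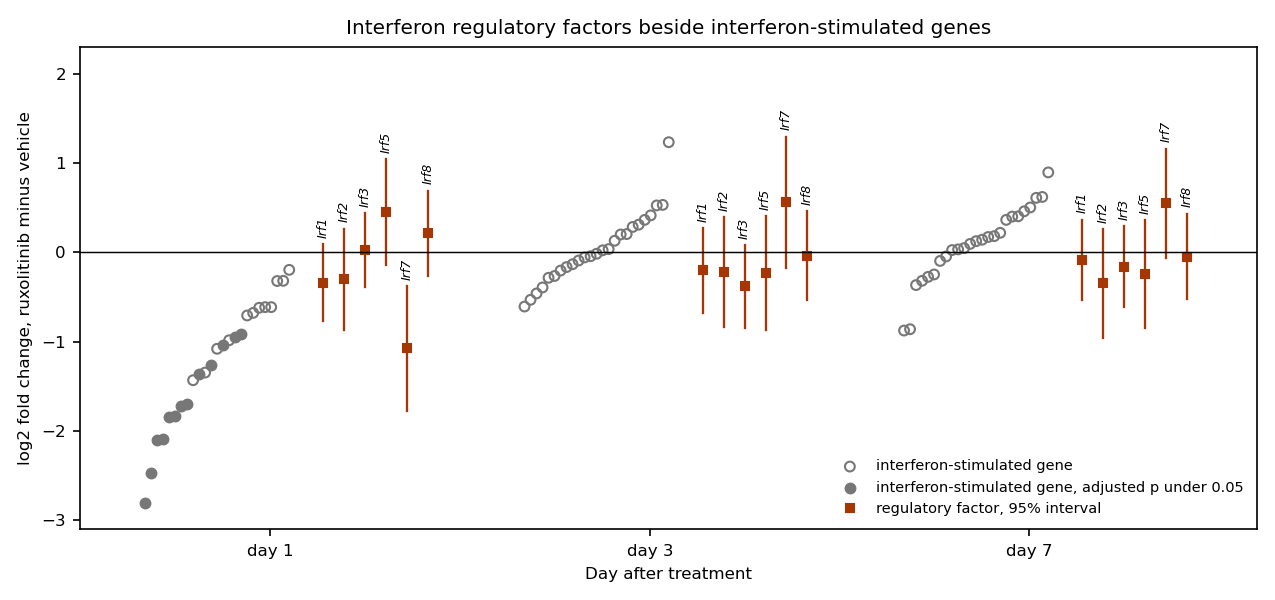
Log2 fold change, ruxolitinib minus vehicle, of 25 interferon-stimulated genes (circles, sorted; filled where the adjusted p is under 0.05) and of the 6 regulatory factors (squares with 95% intervals) on days 1, 3 and 7. On day 1, 25 of 25 circles and Irf7 lie below 0 and 13 circles are filled, and on days 3 and 7 the circles lie on both sides of 0 with 0 filled.

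With venetoclax on day 1, 0 of the 25 interferon-stimulated genes were called and 18 lay below 0, with a list median of -0.17 against -0.02 for all genes. The lowest adjusted p were those of Rsad2 (-1.24, SE 0.30, adjusted p = 0.0529) and Isg20 (-0.91, SE 0.24, adjusted p = 0.0552), which were chosen after their values were seen. Irf7, at -0.78, was below 20 of the 25. Over the mean of 3 days 1 of the 25 was called lower for each drug, the antiviral tetherin gene Bst2 for venetoclax (-0.51, SE 0.14, adjusted p = 0.032) and Oas2 for ruxolitinib (-0.81, SE 0.19, adjusted p = 0.0139). On day 3 the list medians were -0.02 for both drugs, and on day 7 they were -0.08 for venetoclax and 0.13 for ruxolitinib, with 0 genes called in each. The change of the ruxolitinib effect from day 1 to day 7 was called in 7 of the 25, all upward and against 1.07% of all genes called higher, the lowest adjusted p being those of Ifit3 (3.43, SE 0.58), Isg15 (2.88, SE 0.52), Rsad2 (2.23, SE 0.40) and Oas2 (2.32, SE 0.45). Irf7, at 1.63, lay within the range of this list from -0.56 to 3.43.

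Genes acting above Irf7 in the pathway were mostly not called. Of 8 receptor and JAK-STAT genes tested, 0 were called for either drug on any day. With ruxolitinib on day 1 the values were 0.21 (SE 0.21) for the interferon gamma receptor chain Ifngr1 and 0.17 (SE 0.28) for the kinase Jak1. Of 19 sensors, adaptors and kinases that activate IRF3, IRF5 or IRF7, 1 fell with ruxolitinib on day 1, the cytosolic RNA sensor Ifih1 (-1.26, SE 0.29, adjusted p = 0.00704), which is itself interferon-inducible and is also 1 of the 13 above. In the other 5 comparisons of a drug with its vehicle on a day, 0 of the 19 were called.

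Irf3, the constitutively expressed partner of Irf7 that is activated in the cytoplasm by TBK1, had the smallest spread within groups. On day 1 its ruxolitinib mice had 75.3, 71.3 and 69.5 normalised counts against 74.2 and 67.8 in vehicle mice, a log2 difference of 0.03 (SE 0.20) with overlapping mice. The venetoclax mice had 44.4, 68.5 and 53.0 against 65.8 and 65.3, and the lowest of them came from the shallowest lane. On day 3 the ruxolitinib mice had 66.0, 51.4 and 40.9 against 75.9 and 55.1, with a difference of -0.38 (SE 0.23, unadjusted p = 0.105, adjusted p = 0.998) that was -0.15 without the higher vehicle mouse and -0.61 without the lower. On day 7 all 3 venetoclax mice (48.6, 54.5 and 50.3) were below both vehicle mice (55.9 and 67.4), with a difference of -0.23 (SE 0.23, adjusted p = 0.999) that ran from -0.41 to -0.14 when 1 mouse was left out. Irf3 and Irf7 were the 2 of 6 members whose mice did not overlap in that comparison, against 17.3% of all genes.

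Irf5, which drives inflammatory cytokines in myeloid and B cells, stood on opposite sides of vehicle on the first and last days of ruxolitinib. On day 1 the ruxolitinib mice had 73.4, 92.2 and 78.8 normalised counts, all above the vehicle mice at 61.4 and 58.2. The log2 difference was 0.45 (SE 0.29, 95% interval -0.14 to 1.04, adjusted p = 0.55). On day 7 they had 70.5, 86.0 and 77.7, all below the vehicle mice at 91.6 and 94.3, with a difference of -0.24 (SE 0.30, adjusted p = 0.999). The test of the change from day 1 to day 7 gave -0.69 (SE 0.41, unadjusted p = 0.103, adjusted p = 0.647), so the reversal was not shown beyond the spread between mice. With venetoclax the mice of both groups overlapped on day 1 (72.1, 54.8 and 48.8 against 49.6 and 61.3) and on day 7 (101, 83.0 and 93.1 against 87.9 and 98.3). On day 3 all 3 venetoclax mice (63.6, 66.9 and 85.7) were above both vehicle mice (38.1 and 62.4), with a difference of 0.48 (SE 0.30, adjusted p = 0.601) that was 0.21 without the lower vehicle mouse and 0.92 without the higher.

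The summed B cell markers stood apart from vehicle beside these ruxolitinib values, with 0 of 8 called on day 1, 3 or 7. The summed level of the 8 markers was 660 to 742 normalised counts in the ruxolitinib mice of day 1 against 604 to 612 in their vehicle mice. The sum was 304 to 402 against 588 to 625 on day 3 and 248 to 336 against 529 to 534 on day 7. Pax5, the factor that maintains B cell identity, fell by 0.83 over the mean of 3 days (SE 0.21, adjusted p = 0.0264). Of the 8, 1 was called in the change from day 1 to day 7, the B cell surface gene Ms4a1 (-2.01, SE 0.48, adjusted p = 0.0148). At most 1 of the 8 markers was above background in no lane in each of these groups. The part of these markers in the Irf5, Irf3, Irf2 and Irf8 values was not tested.

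Irf1, the interferon gamma-responsive activator of antigen-presentation genes, was lower with ruxolitinib on day 1 in 3 of 3 mice. They had 74.7, 63.9 and 58.5 normalised counts, and the vehicle mice 84.2 and 82.2. The log2 difference was -0.34 (SE 0.21, 95% interval -0.77 to 0.09, adjusted p = 0.529). On day 3 the ruxolitinib mice had 55.0, 76.4 and 63.2 against 82.0 and 74.6, and on day 7 they had 67.7, 96.3 and 90.1 against 87.0 and 92.2, with overlap on both days. Over the mean of 3 days the difference was -0.21 (SE 0.13, unadjusted p = 0.113, adjusted p = 0.551). With venetoclax, Irf1 was at 99.8, 94.1 and 74.2 on day 1 against 80.9 and 77.3. On day 3 it was at 81.0, 80.3 and 77.8 against 86.5 and 82.5, all below both vehicle mice by a margin smaller than the spread between them, and the difference was -0.08 (SE 0.22). On day 7 the venetoclax mice ran from 68.8 to 127 and covered both vehicle mice. The 2 drugs' changes in Irf1 on day 1 differed by 0.51 (SE 0.32, adjusted p = 0.501).

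Of 10 antigen-processing and other IRF1-responsive genes tested, 0 were called with ruxolitinib on day 1, and 7 lay below 0 with a median of -0.48 against 0.13 for all genes. Psmb8, an immunoproteasome subunit, was at -0.68 (SE 0.21, adjusted p = 0.0787), Tap1, which carries peptides into the endoplasmic reticulum, at -0.62 (SE 0.21, adjusted p = 0.118), and Tapbp, which bridges TAP and class I molecules, at -0.49 (SE 0.24, adjusted p = 0.367). With venetoclax, 1 of the 10 was called over the mean of 3 days. This was Ciita, the master activator of MHC-II genes, which fell by 0.88 (SE 0.25, adjusted p = 0.0464). In the same comparison the B cell marker Cd22 fell by 0.80 (SE 0.23, adjusted p = 0.0476), with 7 of 8 B cell markers below 0. Of 8 T cell markers 7 lay below 0 and 2 fell, Cd8a by 1.90 (SE 0.47, adjusted p = 0.014) and Cd3d by 0.94 (SE 0.23, adjusted p = 0.0153). The part of these cells in the Ciita value was not tested.

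Irf2, the commonly repressive counterpart of Irf1, lay below vehicle in its estimate on each day of ruxolitinib. On day 7 its ruxolitinib mice had 74.6, 96.9 and 96.3 normalised counts, all below the vehicle mice at 102 and 127, with a log2 difference of -0.35 (SE 0.30, adjusted p = 0.999) that ran from -0.52 to -0.20 when 1 mouse was left out. Irf2 and Irf5 were the 2 of 6 members without overlap there, against 17.7% of all genes. On day 1 the ruxolitinib mice had 145, 95.02 and 100.1 against 147 and 133, and on day 3 they had 127, 96.1 and 129 against 173 and 96.5, both with overlap. On day 3 of ruxolitinib 0 of 6 members were free of overlap, against 15.6% of all genes. The mean of 3 days was -0.29 (SE 0.17, unadjusted p = 0.0954, adjusted p = 0.551), and -0.42 to -0.14 when 1 mouse was left out. Venetoclax mice overlapped with vehicle on each day, with 88.7, 174 and 168 against 151 and 137 on day 1, where the lowest value was that of the shallowest lane.

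Irf8, which directs monocyte and dendritic cell development and acts in B cells, was not called with either drug on any day. On day 1 the ruxolitinib mice had 136, 144 and 143 normalised counts, narrowly above the vehicle mice at 127 and 116, with a log2 difference of 0.21 (SE 0.23, 95% interval -0.26 to 0.69, adjusted p = 0.733). On the same day the venetoclax mice had 66.6, 90.9 and 76.4 against 119 and 74.9, the lowest Irf8 group mean of the 13 and a difference of -0.24 (SE 0.26, adjusted p = 0.832). The 2 drugs' changes in Irf8 on day 1 differed by -0.46 (SE 0.35, 95% interval -1.17 to 0.26, edgeR adjusted p = 0.587). This value ran from -0.76 to -0.10 when 1 mouse was left out, and its interval did not exclude 2-fold. Beside these values the monocyte and macrophage markers summed to 586 to 638 in the venetoclax mice of day 1 against 478 to 559 in their vehicle mice. Of these 9 markers 4 lay above 0 and 5 below, with a median of -0.0094 and 0 called. The B cell markers summed to 424 to 452 against 481 to 587, with 5 of 8 below 0 and 0 called. Their part in the Irf7 and Irf8 values of that day was not tested. On day 3 the venetoclax mice had 124, 118 and 132 against 105 and 114. Irf1, Irf5 and Irf8 made up the 3 of 6 members without overlap in that comparison, against 26.1% of all genes. The T cell markers summed to 49.6 to 62.8 in the venetoclax mice of day 3 and 82.0 to 116.5 in their vehicle mice, without overlap and with 0 of 8 called, and their part in these values was not tested. On day 7 the Irf8 mice of both drugs overlapped with vehicle, and the differences were 0.02 (SE 0.24) for venetoclax and -0.05 (SE 0.24) for ruxolitinib. Of 7 IRF8 partner and myeloid target genes tested, 0 were called for either drug on any day. With ruxolitinib on day 1 the oxidase subunit Cybb was at 0.13 (SE 0.36), the receptor Csf1r at -0.09 (SE 0.22) and the protease Ctss at 0.24 (SE 0.36).

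Over the 6 comparisons of a drug with its vehicle on a day, treated and vehicle mice did not overlap in 12 of 36 member values, against 24.7% over all genes tested. Vehicle and untreated mice differed by less than 1 SE for Irf1, Irf2, Irf5 and Irf8, with values from -0.18 to -0.02, and by -0.23 (SE 0.17, adjusted p = 0.644) for Irf3 and 0.31 (SE 0.31, adjusted p = 0.81) for Irf7. The Irf7 value ran from 0.13 with all 20 housekeeping probes to 1.36 with limma after background subtraction, and the Irf3 value from -0.37 with all 20 housekeeping probes to -0.047 with DESeq2, with neither called in any alternative. The ruxolitinib vehicle and the venetoclax vehicle differed by -0.11 to 0.24 over the 6 members, the highest being Irf8 (SE 0.15, unadjusted p = 0.116, adjusted p = 0.9995), whose value ran from 0.12 to 0.36 when 1 mouse was left out.

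In the fit as reported, members were called only between days in mice given no drug, a comparison added after the values were seen. In some other settings Irf7 was also called for ruxolitinib, as given under the processing. Between the 4 vehicle mice of day 1 and the 4 of day 7, Irf5, Irf7 and Irf8 rose, 3 of 6 members in a comparison that called 30.1% of all genes. Of all genes 20% were called higher and 10.1% lower. Irf7 went from 19.4, 17.5, 10.99 and 20.9 normalised counts to 40.6, 42.1, 25.9 and 30.7, a log2 difference of 0.91 (SE 0.25, adjusted p = 0.00507). Irf8 went from 119, 74.9, 127 and 116 to 177, 160, 179 and 180, a difference of 0.69 (SE 0.19, adjusted p = 0.00519). Irf5 went from 49.6, 61.3, 61.4 and 58.2 to 87.9, 98.3, 91.6 and 94.3, a difference of 0.68 (SE 0.23, adjusted p = 0.0266). Irf1 (0.27, SE 0.17), Irf2 (-0.36, SE 0.23) and Irf3 (-0.32, SE 0.17) were not called. The median of all 655 genes was 0.19 in this comparison and -0.00707 with TMM scaling. On the TMM scale Irf7 rose (0.70, adjusted p = 0.0177) and Irf3 fell (-0.54, adjusted p = 0.028), while Irf5 (0.45, adjusted p = 0.122) and Irf8 (0.47, adjusted p = 0.0706) were not called.

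These day values were read in separate runs, and the untreated mice give a measure of the runs. The untreated mice of the day 1, 3 and 7 runs had 22.4, 63.5 and 131 normalised counts of Irf5, 12.8, 16.4 and 20.2 of Irf7, and 112, 114 and 206 of Irf8. Among untreated mice all 3 genes were thus highest in the day 7 run as well. That mouse lay above all 4 vehicle mice of its run for Irf5 and Irf8 and below them for Irf7. The summed count of this untreated lane was 37003, among the lowest of the 33. With run as a block, which measures the vehicle mice against the untreated mouse of the same run, the differences were -1.87 for Irf5, 0.25 for Irf7 and -0.18 for Irf8, and 0 members and 0 of 655 genes were called. That fit leans on single mice, and the untreated day 1 values of Irf5 and Irf7 were not above background. Whether the vehicle-day difference belongs to time after gavage or to the run cannot be told apart.

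**Figure D4:**
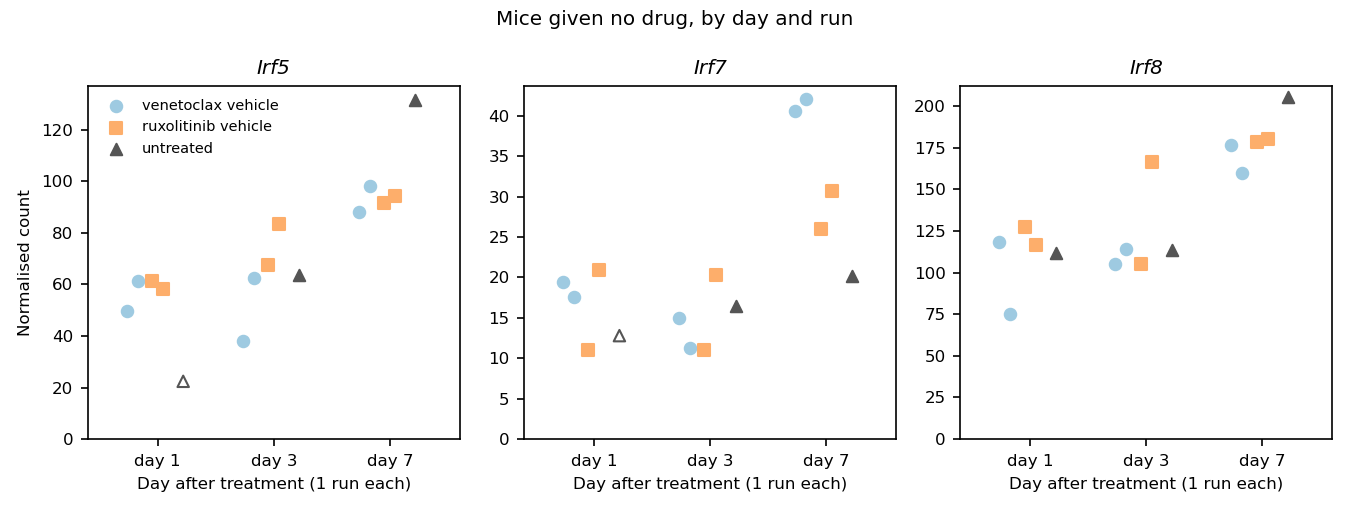
Normalised counts of Irf5, Irf7 and Irf8 in the 12 vehicle and 3 untreated mice by day, each day being 1 run; 1 symbol is 1 mouse and open symbols are not above background. These are the members called higher in vehicle mice of day 7 than of day 1, where 30.1% of all genes were called in either direction. The untreated mouse of the day 7 run is the highest of the 15 for Irf5 and Irf8 and lies below the vehicle mice of its day for Irf7.

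Markers of marrow cells moved between the same vehicle groups. Of 8 neutrophil markers tested 5 were higher and 2 lower on day 7, with a median of 1.296 against 0.19 for all genes, and the lowest adjusted p were those of Cxcr2 (1.31, SE 0.24), Mpo (1.89, SE 0.35), Elane (2.35, SE 0.45) and Lcn2 (1.71, SE 0.39). Mpo and Elane are granule enzymes of neutrophil precursors. The summed neutrophil level, dominated by S100a8, was 82687 to 103820 in the 4 vehicle mice of day 1 and 57164 to 68470 in those of day 7. Of 9 monocyte and macrophage markers 2 rose, Cd68 (1.35, SE 0.28) and Msr1 (1.46, SE 0.41), and the summed level was 478 to 612 on day 1 and 592 to 744 on day 7. Of 4 progenitor markers 3 rose, the summed level being 29.3 to 60.4 on day 1 and 89.9 to 114.8 on day 7. Of 4 dendritic cell markers Flt3, also on the progenitor list, rose (1.14, SE 0.30), and their summed level was 25.5 to 33.4 on day 1 and 36.5 to 50.0 on day 7. Of 8 B cell markers 2 rose and 3 fell. Of 8 NK cell markers Klrk1 (1.18, SE 0.32) and Klrd1 (0.65, SE 0.23) rose, with a summed level of 53.4 to 73.6 on day 1 and 82.0 to 103.9 on day 7. Of 8 T cell markers Cd3g rose (1.45, SE 0.40), with a summed level of 72.3 to 77.0 on day 1 and 85.5 to 137.6 on day 7. The part of these markers in the Irf5, Irf7 and Irf8 differences was not tested.

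Pathway genes around the members also moved between the vehicle days, in both directions. Of 7 IRF8 partner and target genes 3 rose, Ctss (1.39, SE 0.28), Cybb (1.37, SE 0.28) and the blood-cell factor Runx1 (0.90, SE 0.26). Of 19 sensors and kinases 3 rose and 4 fell, the lowest adjusted p being those of the kinase Ikbke (-1.25, SE 0.30), the RNA sensor Tlr7 (1.25, SE 0.31), its adaptor Myd88 (1.04, SE 0.30) and Tlr4 (1.18, SE 0.38), the receptor for bacterial endotoxin. Of 8 receptor and JAK-STAT genes, Ifnar2 (1.19, SE 0.24) and Jak2 (0.81, SE 0.25) rose and Tyk2 (-1.17, SE 0.25) fell. Of 25 interferon-stimulated genes 1 rose and 7 fell, with a median of -0.25, and the Irf7 value of 0.91 was above 25 of 25 in this comparison. Ifit3 (-1.38, SE 0.30) and Oas2 (-0.88, SE 0.24) fell while Irf7 rose in the same mice. Of 10 IRF1-responsive genes 4 fell and 0 rose, among them Tapbp (-0.87, SE 0.20), Psmb8 (-0.61, SE 0.17), Tap2 (-0.94, SE 0.28) and Nlrc5 (-0.60, SE 0.22).

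Finally, each member was set beside genes that tracked it closely over the 33 lanes, by Pearson correlation of log2(normalised count + 1) among genes above background in every lane. The lanes share runs, depth and scaling, so these are descriptions. Irf8 tracked the MHC-II chain H2-Aa (r = 0.86, and 0.89, 0.59 and 0.31 within the runs of days 1, 3 and 7), Cd164 (r = 0.86) and the myeloid receptor Clec5a (r = 0.82). Within the day 7 run r was 0.26 for Cd164 and -0.004 for Clec5a. Irf5 tracked the MHC-I gene H2-D1 (r = 0.86, and 0.90, 0.85 and -0.08 within runs), Ly86 (r = 0.81) and Tgfb1 (r = 0.81). For Ly86 and Tgfb1 r was 0.26 and 0.64 among the lanes of day 7. Irf7 tracked the lysosomal membrane gene Lamp2 (r = 0.82, and -0.13, 0.80 and 0.59 within runs), Cybb (r = 0.81) and Cd47 (r = 0.80), and for each of these 3 genes r was between -0.15 and 0.22 among the lanes of day 1. Among the lanes of day 7 r was 0.36 for Cybb and -0.003 for Cd47. Irf2 tracked the ubiquitin ligase Itch (r = 0.81, and 0.84, 0.81 and 0.76 within runs), the kinase Chuk (r = 0.76) and Cd37 (r = 0.71). For Chuk and Cd37 r was 0.34 and 0.61 within the day 7 run. Irf3 tracked the MHC-II-like gene H2-Ob (r = 0.70, and 0.67, 0.41 and 0.77 within runs) and Nfkb2 (r = 0.67). Irf1 had lower correlations, with Mapk14 (r = 0.55, and 0.56, 0.47 and 0.57 within runs) and Slamf7 (r = 0.55, and 0.58, 0.18 and 0.62 within runs).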

How the data were processed

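Total BM RNA of 33 mice was measured on the NanoString nCounter. The deposited values are raw barcode counts per probe, exported by the authors without normalisation, 1 lane per mouse; the nCounter Advanced Analysis (version 2.0.115) named in the methods is not in them. Groups came from the sample labels. The 6 members and the gene lists were chosen with earlier results of these data known.

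Lanes were scaled to 11 of the 20 housekeeping probes (geometric mean), those detected over background in all lanes; a gene was tested if 2 or more lanes detected it. Quasi-likelihood fits (edgeR 4.0.16, R 4.3.3) had 13 group means over 655 genes, and calls needed a Benjamini-Hochberg adjusted p under 0.05; its p-values are never below those of a Poisson model. The common dispersion was 0.0406 with 20 residual degrees of freedom. Differences are log2 fold changes with their SE. Named genes were all 6 members, up to 4 called genes per list by adjusted p or, where none was called, up to 3 with the highest mean count, and the 3 genes most correlated with each member; some genes that this rule names are not reported here. The fit was checked on simulated data. Alternatives were other scalings, DESeq2 1.42.0, limma 3.58.1, filters, blocks and left-out mice. No lane was identical to another or left out. Lane depth and mouse-to-mouse spread set the precision.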

Additional observations from a re-analysis of the deposited data

How the results depend on the processing

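For 13 of the 16 comparisons 0 members were called as reported and in each alternative, and over all 345 combinations of comparison and alternative 318 called 0 members. With ruxolitinib on day 1, 1 member, Irf7, was called with TMM scaling (-1.16, adjusted p = 0.0309), when only the groups compared were fitted (-1.11, adjusted p = 0.0301) and with both vehicles pooled (-1.13, adjusted p = 0.0219). It was not called in the other 10 alternatives, whose adjusted p reached 1. For the ruxolitinib change from day 1 to day 7, 1 member, Irf7, was called with TMM scaling, all 20 housekeeping probes, a mean count of at least 10 and run as a block. Leaving out 1 mouse called 0 to 1 members there, with Irf7 between 0.99 and 1.91, and leaving out 1 mouse of ruxolitinib day 1 or its vehicle moved Irf7 between -1.36 and -0.44. For the vehicle mice of day 7 against day 1, 3 members were called as reported, where 30.1% of all genes were called. DESeq2 called 1 member (Irf3, lower), limma after background subtraction 0, and the fit of only the groups compared 6. Run as a block called 0 members and 0 of 655 genes. It turned Irf1 to -0.12, Irf2 to 0.18, Irf5 to -1.87 and Irf8 to -0.18. The shares of all genes called in the other alternatives of these comparisons are not given here, so these counts describe the members alone. Leaving out 1 vehicle mouse called 2 to 3 members there; Irf5 was called in 2 of 8 such fits, Irf8 in 7 and Irf7 in 8. The cause of these differences was not tested, except that fits of fewer groups share the spread of fewer mice. Of the 96 member values, 61 were within their SE of 0, of which 39 changed sign in some alternative and 0 were called in any.

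Replicate numbers did not pair the mice: lanes with the same number in different groups correlated at a mean r of -0.00235 (range -0.433 to 0.516), and 14 of 33 lanes correlated best with a lane of their own number. With the replicate number as a block, 0 members were called in each of the 15 comparisons of the design and 3 in the added one, and Irf7 with ruxolitinib on day 1 was -1.10 (adjusted p = 0.0952).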
